A study of Mus musculus with 6 samples.

Results

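RNA polymerase II (Pol II) was mapped over all protein-coding genes of mouse fetal myotubes by setting the 2 Pol II chromatin immunoprecipitations against the 2 input libraries, which are 4 of the 6 samples of the series. Every sample came from the same kind of culture: primary myoblasts from the limb muscle of wild-type C57BL/6 fetuses (E18.5), at 17 passages, which were kept for 48 h in DMEM with 2% horse serum to form myotubes. The Pol II libraries were made with antibody 4H8 from Abcam, and the input libraries with sheared chromatin and no antibody. The other 2 samples were Sox6 immunoprecipitations of the same cultures and enter only as an alternative background. A passaged culture thus stands in for fetal muscle. The libraries were built from chromatin fixed with disuccinimidyl glutarate and formaldehyde, amplified for 18 PCR cycles and cut from a gel at 300 to 600 bp.

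Members were all 22219 protein-coding genes of an mm9 annotation, 1 per symbol, with no choice by value. Read 5′ ends were counted within 500 bp of the annotated start and, separately, from 500 bp after the start to the gene end, which is called the body here. The Pol II libraries held 1538757 and 2762155 mapped reads, and the inputs held 21973495 and 24249850. In the median gene this left 1 read at the start in each Pol II library against 7 and 10 in the inputs, and 12 and 21 reads in the body against 139 and 161. A gene with few reads can therefore not be placed well at its start, and the body carries most of the precision.

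Pol II transcribes all protein-coding genes. After it assembles at a promoter it often stops a short way into the gene, held by the factors NELF and DSIF, and moves on when the kinase P-TEFb acts on them. Chromatin immunoprecipitation with an antibody to the repeats of its largest subunit therefore gives reads over the start of genes where it waits and along the body of genes it is transcribing. Antibody 4H8 recognises those repeats whether or not they are phosphorylated, so the reads cover both forms. When myoblasts differentiate they leave the cell cycle, switch on the genes of the contractile apparatus and fuse into myotubes.

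The sequence just before the start is shown for 4 genes that the results turn on, as the 250 bases that precede the annotated start on the gene's own strand in mm9. Acta1 and Myog carried some of the largest amounts of Pol II in their bodies, whereas Zbtb37 and Polr2a had a far higher density of Pol II at the start than in the body. Capitals mark the TATA box core TATAAA, the Sp1 site core GGGCGG, the CCAAT box, the E-box CAGCTG and the TEAD site core CATTCC on either strand, and the bases were read from the NCBI Build 37 genome.
Acta1, chr8:126418652-126418901, minus strand: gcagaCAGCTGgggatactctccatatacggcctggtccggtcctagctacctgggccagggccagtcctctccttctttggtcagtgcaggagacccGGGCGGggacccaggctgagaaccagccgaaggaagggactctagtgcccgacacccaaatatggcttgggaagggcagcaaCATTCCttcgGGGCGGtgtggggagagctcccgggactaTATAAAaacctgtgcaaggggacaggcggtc
Myog, chr1:136186331-136186580, plus strand: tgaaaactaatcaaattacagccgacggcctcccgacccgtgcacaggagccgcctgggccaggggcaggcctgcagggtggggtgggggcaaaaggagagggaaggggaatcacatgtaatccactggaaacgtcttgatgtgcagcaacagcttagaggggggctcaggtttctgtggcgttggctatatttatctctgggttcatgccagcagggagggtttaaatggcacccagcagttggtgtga
Zbtb37, chr1:162964967-162965216, minus strand: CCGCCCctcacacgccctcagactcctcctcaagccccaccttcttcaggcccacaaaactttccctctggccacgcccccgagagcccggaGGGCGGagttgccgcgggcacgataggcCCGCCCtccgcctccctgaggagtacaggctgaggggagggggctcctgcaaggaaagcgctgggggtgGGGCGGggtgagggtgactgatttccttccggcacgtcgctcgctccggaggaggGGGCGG
Polr2a, chr11:69572140-69572389, minus strand: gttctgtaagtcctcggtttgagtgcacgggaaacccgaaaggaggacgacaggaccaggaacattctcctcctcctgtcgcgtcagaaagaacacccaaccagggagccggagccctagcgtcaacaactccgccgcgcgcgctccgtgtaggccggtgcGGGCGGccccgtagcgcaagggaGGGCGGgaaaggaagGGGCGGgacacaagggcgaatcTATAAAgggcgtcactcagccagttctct

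The TATA box core began 31 bases before the start of Acta1 and 29 bases before that of Polr2a. The Sp1 core occurred 5 times before Zbtb37, whereas the window of Myog held none of the 5 motifs. Among all 22219 genes, 12.2% held TATAAA in this window, 41.1% held GGGCGG, 34.8% held CCAAT, 11.8% held CAGCTG and 11.3% held CATTCC. A match describes the letters of this window only.

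Pol II gathered at the start of genes and spread on into their bodies. Over the 12898 genes of at least 5 kb with no other start within 5 kb, Pol II reached 2.02 RPKM (read ends per kb of window, scaled to the mapped reads of the library) in replicate 1 and 1.95 in replicate 2, in both cases in the first 100 bp of the gene. From 3 to 2 kb before the start it stood at 0.503 and 0.508 RPKM, and from 2 to 5 kb after it at 0.969 and 0.974. Both Pol II libraries were thus higher after the start than before it, and highest at the start itself.

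The inputs went the other way at the same place. Their lowest 100 bp bin lay 100 to 200 bp after the start, at 0.257 RPKM in replicate 1 and 0.337 in replicate 2, against 0.502 and 0.501 from 2 to 5 kb after it. Any comparison with input at starts therefore contains this dip, which was deeper in replicate 1, so the densities of both are given side by side below. Reads of input replicate 1 were 36 bp long and those of all other libraries 39 bp. The part of read length in the dip was not tested.

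**Figure D1:**
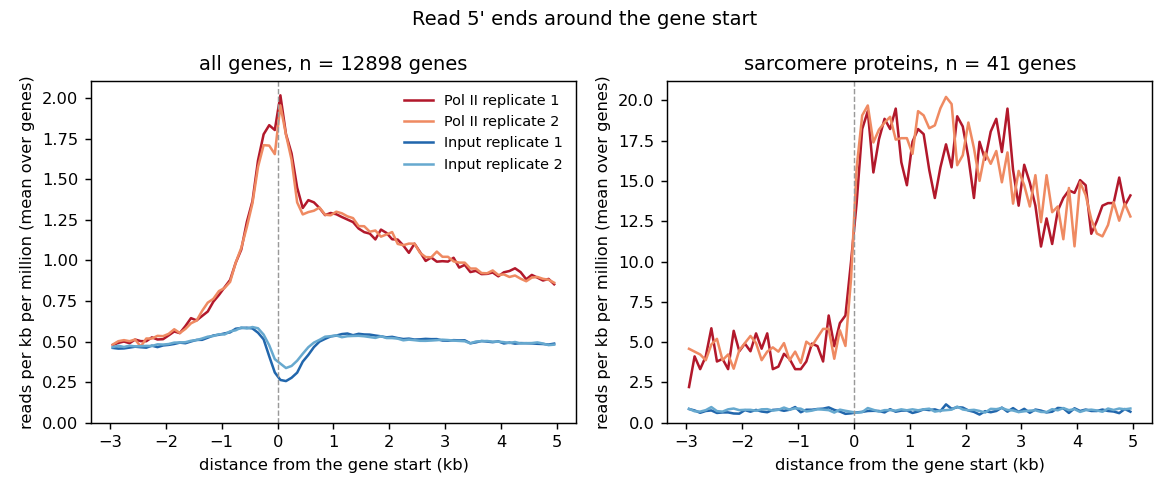
Mean density (RPKM) of read 5′ ends in 100 bp bins from 3 kb before to 5 kb after the gene start, for 12898 genes with no other start within 5 kb (left) and 41 of these that encode sarcomere proteins (right). Lines are the 2 Pol II and the 2 input libraries, and the vertical axes differ. Over all genes Pol II peaked at 2.02 and 1.95 in the first 100 bp while input dipped, and over sarcomere genes Pol II went from 4.09 and 4.32 before the start to 14.6 and 14.2 between 2 and 5 kb after it, with no sharp peak at the start.

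Genes of the contractile apparatus held the most Pol II in their bodies. The 10 genes with the largest body ratio to input, of 4513 that met the naming rule, were Acta1, Myh3, Actc1, Mylpf, Myog, Tmsb10, Mybph, Gapdh, Actb and Ftl1. Of these, 6 encode muscle proteins or their regulator: skeletal and cardiac alpha-actin (Acta1, Actc1), embryonic myosin heavy chain (Myh3), a myosin light chain (Mylpf), a myosin-binding protein (Mybph) and the transcription factor myogenin (Myog). The other 4 serve most cells, as actin-binding thymosin, a glycolytic enzyme, cytoplasmic actin and ferritin light chain.

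Actc1 had the highest body density of these, with 103 and 101 RPKM in the Pol II libraries against 1.07 and 1.02 in the inputs. Myh3 stood at 72.8 and 77.5 RPKM against 0.727 and 0.785. Acta1 stood at 65.7 and 66.1 RPKM against 0.44 and 0.831. Both Pol II libraries lay far above both inputs for each of them. In mm9, Actc1 lies at chr2:113873018-113878623 on the minus strand, Myh3 at chr11:66891802-66915793 on the plus strand and Acta1 at chr8:126415669-126418651 on the minus strand. On the log2 scale, Pol II exceeded input in the body by 6.73 ± 0.25 (SE) for Acta1, 6.64 ± 0.08 for Myh3 and 6.60 ± 0.13 for Actc1, each with its SE, at limma adjusted p of 5.2e-16, 9.4e-24 and 8.3e-21. The ratio ranged down to 5.79 ± 0.34 for Ftl1 among the 10.

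Myogenin and MyoD carried far more Pol II than the other members of their family. These 4 related factors commit cells to muscle (Myf5, Myod1) and drive differentiation (Myog, Myf6). Myog held 56 and 61.3 RPKM in the body and Myod1 held 29.8 and 32.3, against inputs of 0.565 to 0.891. Myf5 held 5.72 and 4.12 RPKM against 1.02 and 0.998, and Myf6 held 1.90 and 3.7 against 0.698 and 0.874. All 4 were called higher than input, and the Pol II values of Myog and Myod1 did not overlap those of Myf5 and Myf6. Pax7, the factor of satellite cells, held 1.17 and 1.22 RPKM against 0.503 and 0.531, with a log2 ratio of 1.22 ± 0.10 and a limma adjusted p of 1.2e-09.

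Among the myosin heavy chain genes, the developmental genes Myh3 and Myh8 held the most Pol II and the adult, slow and cardiac genes far less. The embryonic gene Myh3 was followed by the perinatal gene Myh8 at 17.1 and 18.9 RPKM. Myh7b reached 2.33 and 2.32 RPKM, the adult fast gene Myh1 1.35 and 1.31, and the slow and cardiac gene Myh7 0.887 and 1.05. Below these, Myh6 (0.645 and 0.599), Myh4 (0.415 and 0.314), Myh2 (0.225 and 0.306) and Myh13 (0.118 and 0.176) lay near or under their inputs of 0.457 to 0.556 RPKM. Myh2 and Myh13 were called lower than input, Myh6 and Myh4 were not called, and the others were called higher. The 2 Pol II values of each gene did not overlap those of its neighbours in this order, although Myh4 and Myh2 lay close together and rest on 9 to 22 reads in each Pol II library.

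In the acetylcholine receptor, a fetal subunit gene likewise stood above its adult counterpart. The fetal subunit gene Chrng held 21.4 and 23.1 RPKM in the body, and its adult replacement Chrne held 1.86 and 1.04 from 11 reads in each library. The input of Chrng stood at 0.577 and 0.747 RPKM, and that of Chrne at 0.404 and 0.592. Among troponin genes, those of slow muscle (Tnnc1, 33.2 and 35.9 RPKM) and of fast muscle (Tnnt3, 27.2 and 29.4) were both well occupied. Cdkn1a, the inhibitor of cyclin-dependent kinases that accompanies cell cycle exit, reached 30.4 and 32.4 RPKM against 0.616 and 0.661 in the inputs.

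**Figure D2:**
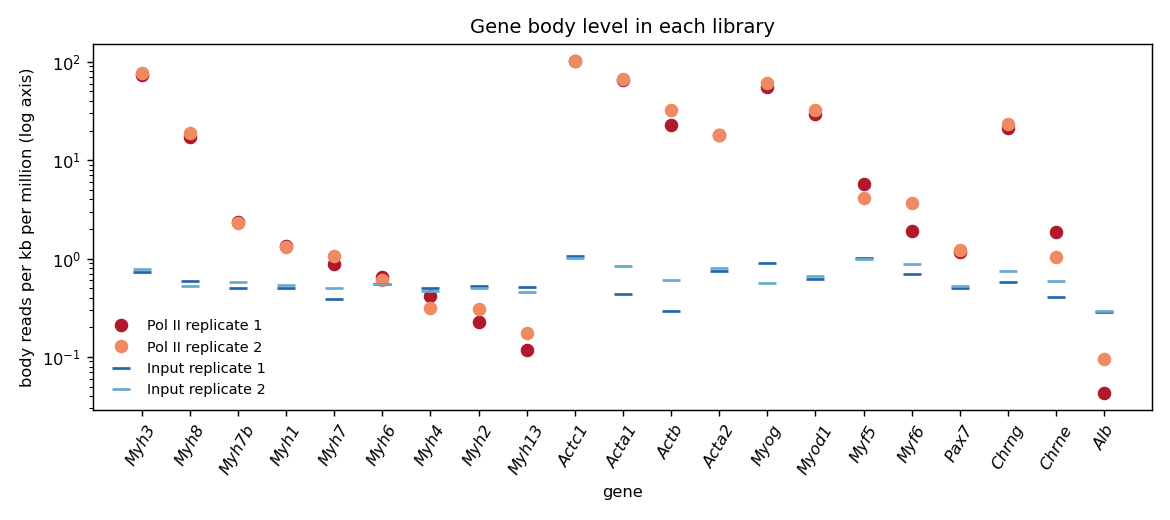
Body density in RPKM (log axis) of 21 genes in the 2 Pol II libraries (points) and the 2 input libraries (dashes): myosin heavy chains, actins, muscle regulatory factors with Pax7, 2 acetylcholine receptor subunits and Alb. Myh3, Actc1, Acta1 and Myog stood between 56 and 103 in Pol II, while Myh4, Myh2, Myh13 and Alb lay below their inputs.

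Across all genes, 7265 of 19612 tested had more Pol II than input in the body (37%) and 4437 had less (22.6%), at a limma adjusted p under 0.05. The median log2 ratio was 0.19. These ratios are relative, because reads gathered in genes leave fewer for the rest of a Pol II library: 65.4% and 66.1% of Pol II reads fell in bodies against 46.1% and 45.3% of input reads, and 17.9% and 17.2% fell far from genes against 40.5% and 39.9%. When libraries were scaled to the reads far from genes the median log2 ratio rose to 1.39, and 11931 genes were called higher and 357 lower. Leaving out Pol II replicate 1 or 2 lowered the 4437 lower calls to 2744 and 1673. An exact binomial test within each experiment called 6017 genes higher in both, all of them among the 7265. It called 2884 lower in both, 2881 of them among the 4437. These exact tests, here and below, set 1 library against another and cover counting error only. In bulk cells a change in the number of cells that use a gene cannot be told apart from a change in Pol II per cell.

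Silent genes show where the scale has its floor. The 320 olfactory receptor genes that could be tested in both regions, which muscle does not use, held 0.31 times the input density at the start in both experiments and 0.36 and 0.34 times in the body. Alb, the serum albumin gene of liver, had 1 and 4 body reads in Pol II against 95 and 109 in the inputs, and no read at its start in Pol II against 5 and 3. The median gene-wise log2 ratio of the 336 receptors tested in the body was nevertheless 0.22, because the 0.5 reads added to each library weigh more in the shallow Pol II libraries. Gene-wise ratios of genes with few reads are therefore biased upwards, and the summed densities are not.

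The lists of muscle genes lay well above the floor, whereas the marker lists of other cell types lay below input in their summed bodies. All 8 myotube markers were called higher in the body, where the background was 37%, and their summed body density was 25.2 and 26.5 RPKM against 0.734 and 0.704 in the inputs. Of the 57 sarcomere genes, 47 were called higher and 3 lower, with summed densities of 10.1 and 10.6 RPKM. The 10 not called higher comprised Myh2, Myh13 and Myl2, which were called lower, and Myh4, Myh6, Myl3, Tnni3, Mybpc2, Mybpc3 and Myoz3, which encode adult fast, cardiac or other isoforms and were not called.

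None of the markers of fibroblasts (8 genes), endothelium (7), blood (4 tested), nerve and Schwann cells (6), adipocytes (5), epithelium (4) or liver (4) was called higher in the body. Their summed body density ranged from 0.127 to 0.388 RPKM in Pol II, and each lay below its inputs, which ranged from 0.383 to 0.851. These sums cover genes tested in both regions, which leaves 6 for endothelium and 3 for epithelium. Defining markers with no Pol II read at the start in either library included Fap and Thy1 for fibroblasts, Pecam1 for endothelium, and Ptprc for blood. A count of 0 is common at this depth, since 9889 and 8171 of all 22219 genes had no start read. At the start, the summed density of the nerve and Schwann cell list stood above its inputs in both experiments, at 0.541 and 0.723 RPKM against 0.333 and 0.323, and no other of these 7 lists did so in both. Markers of proliferating myoblasts stood in between, with Myf5 and Pax7 called higher in the body, and Mki67 among the 3 called lower. When libraries were scaled to the reads far from genes, the body ratios of Mki67, Pecam1 and Cdh1 turned from below to above input.

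Most genes of the housekeeping lists were called higher in the body, against 37% of all genes. All 76 tested cytosolic ribosomal protein genes were called, with a median log2 ratio of 2.91, and summed densities of 5.21 and 5.34 RPKM against 0.666 and 0.695. Of 79 oxidative phosphorylation genes, 72 were called higher, with a median of 1.79. Glycolysis and creatine kinase genes gave 23 of 28, led by Gapdh and by Aldoa, which encodes aldolase A (log2 ratio 4.94 ± 0.22 SE). Ckm, the muscle creatine kinase gene, held 2.15 and 2.32 RPKM, and its log2 ratio of 2.35 lay near the list's median of 2.29.

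Genes for excitation and calcium handling gave 31 of 39 called higher in the body, led by Chrng and by Atp2a1, the calcium pump of the fast sarcoplasmic reticulum (14.4 and 14.3 RPKM). Genes for fusion and the membrane complex gave 22 of 26, led by Gm7325 and Tmem8c, which encode the fusion proteins myomixer and myomaker. Tmem8c held 19.2 and 19.6 RPKM against 0.657 and 0.949 in the inputs. Immediate early genes gave 34 of 39, led by Rhob and Gadd45g, and muscle transcription factors gave 34 of 45. By contrast, 10 of 42 replication and mitosis genes were called higher and 12 lower, with a median of -0.33 against 0.19 for all genes. Across all genes 37% were called higher and 22.6% lower. Matrix and fibroblast genes gave 7 higher and 17 lower of 36, the 7 including Vim and Serpinh1, which many mesenchymal cells express. Hox genes gave 16 higher and 5 lower of 39, a share of higher calls near that of all genes, with Hoxc11 and Hoxa9 at the top and Hoxd11 at the bottom.

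**Figure D3:**
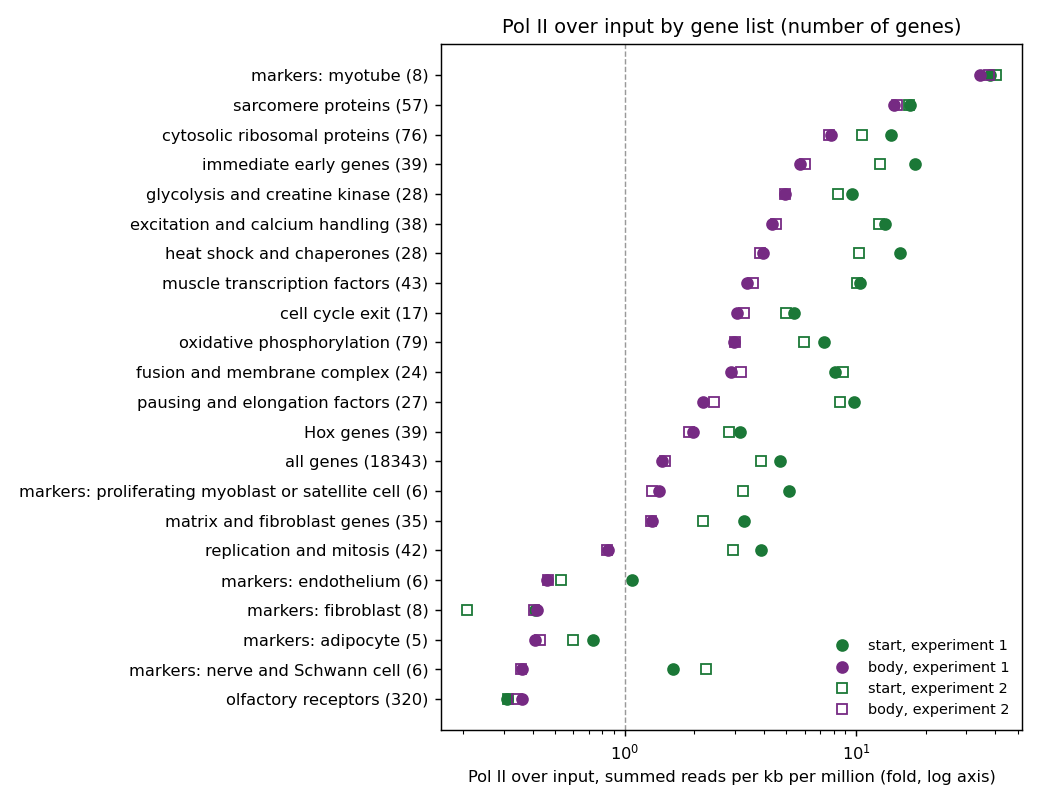
Pol II over input (fold, log axis) for summed reads at the starts and in the bodies of the genes of each list, in experiment 1 (filled circles) and experiment 2 (open squares), with the number of genes in brackets. Myotube markers reached 34.4-fold and 37.6-fold in the body and olfactory receptors 0.36-fold and 0.34-fold, and replication and mitosis genes stood at 3.89 and 2.94 at the start but 0.84 and 0.84 in the body. The marker lists of blood, epithelium and liver are not drawn.

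Ttn, which encodes titin, held the most body reads of any gene, 9073 and 16981, or 0.59% and 0.615% of each Pol II library against 0.0209% and 0.0195% of the inputs. The 10 genes with the most body reads held 2.65% and 2.76% of the Pol II reads, against 0.993% and 0.967% of input reads for the 10 fullest genes there. Dmd, the dystrophin gene on chromosome X and among the longest, held 0.902 and 0.949 RPKM over its body against 0.385 and 0.351.

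The surroundings of Gapdh and Myl4 bear on their values. Gapdh and Iffo1 converge with their ends next to each other, and Iffo1 held 51.8 and 53.5 RPKM in its body beside 51.5 and 60.3 for Gapdh. Without strand in the assay, reads of the 2 genes cannot be told apart near their ends. Myl4 is different: it held 26.6 and 27.6 RPKM, more than Myh8, yet its log2 ratio to input was 3.76 ± 0.07, with its input at 1.88 and 2.13 RPKM. It lies in the stretch chr11:103200001-104600000, where the median 100 kb bin held 2.82 and 2.98 times the autosomal median of each input.

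At the start, 7415 of 20057 genes tested had more Pol II than input (37%) and 24 had less (0.12%), at a limma adjusted p under 0.05. The median log2 ratio was 1.22. The lower calls and the median depend on the 0.5 reads added to each library: with an equal value added relative to library size, 6453 genes were called higher and 1556 lower and the median was 0.41, and with at least 10 input reads required 207 were called lower. Of the 24, 10 were gene models with pile-ups of input reads, over 200 per kb, and the other 14 had no Pol II read at the start, among them Macf1, Traf3ip3 and the fibroblast gene Dcn. The depth of the Pol II libraries limits the low end: 9889 genes had no start read in Pol II replicate 1 and 8171 had none in replicate 2. An exact binomial test within each experiment called 4217 genes higher in both, all of them among the 7415, and 3 lower, all among the 24. The limma count leans on 13 pile-up genes: without them it was 8392. When input replicate 1 was left out limma called 369 genes higher, and 6700 when the pile-up genes were left out as well. Leaving out pile-ups was chosen after seeing the data.

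Actb, Myod1 and Myh3 held much Pol II at the start as well as in the body. Actb held 35.1 and 39.1 RPKM at the start against 0.227 and 0.783 in the inputs, Myod1 40.2 and 33.3 against 0.546 and 0.742, and Myh3 58.4 and 57.1 against 1.5 and 1.11. Gapdh, Tmsb10 and Ftl1, among the 10 largest in the body, held 11.6 to 18.1 RPKM at the start used. Of the 18351 genes tested in both regions, 5193 (28.3%) were called higher in both, 1752 (9.55%) at the start with no call in the body, 1877 (10.2%) in the body with no call at the start, and 309 (1.68%) at the start while lower in the body. The log2 ratios of the 2 experiments correlated across these genes with Pearson's r of 0.811 in the body and 0.634 at the start. For the start ratio minus the body ratio, r was 0.421. The points are genes of the same libraries and not replicates.

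Promoters rich in CpG carried Pol II more often. Of the 7251 genes without another start in their span whose start window had an observed to expected CpG ratio of at least 0.6, 57.9% were called higher at the start, against 14.9% of the 8059 other genes. Summed start density was 2.70 and 2.56 RPKM in the CpG-rich class and 1.01 and 1.02 in the other, while the inputs held 0.416 and 0.509 against 0.421 and 0.457. The inputs thus differed little between the classes at the start, but their bodies held 0.540 and 0.525 RPKM against 0.427 and 0.417. Sarcomere genes were an exception in sequence: 6 of 57 (10.5%) had a CpG-rich start, against 46.5% of all genes and 92.3% of ribosomal protein genes, and 39 of 57 were called higher at the start, against 37% of all genes. E-box CAGCTG stood in the upstream window of 31.6% of sarcomere genes and 43.6% of excitation and calcium handling genes, against 11.8% of all genes. No test was made of these shares.

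The ratio of start to body was higher in Pol II than in input in 4244 of 18351 genes (23.1%), and the body exceeded the start in 162 (0.883%), by the limma term for region in Pol II. With an equal value added relative to library size 1820 genes were called, and with the Sox6 libraries as background 0, with 2462 at an unadjusted p under 0.05 in either direction. The reads behind many of these calls are few. At least 3 start reads in each Pol II library were present in 2826 of the 4244, 159 had none, and 3238 were also called higher at the start itself. That last call uses the same start reads, so it is not a separate result, and 37% of all genes were called higher at the start. Fisher's exact test within each experiment called 1234 genes in both, 1230 of them among the 4244. These counts, and those of the lists below, include genes whose span holds another gene's start, where reads can belong to either gene. Among genes without such a start, Fisher's exact test called 707 of 7251 with CpG-rich and 102 of 8059 with other promoters. A limma fit that left out genes with another start in their span called 2585 of 15316. Of the 1230, 677 (55.0%) were called higher in the body, 429 (34.9%) had no call there and 124 (10.1%) were lower in the body than input. Among all genes tested in the body, 37% were called higher and 22.6% lower. The limma calls also rest on having both inputs, since leaving out either input gave 0 calls in each direction (3537 and 4241 genes at an unadjusted p under 0.05), whereas leaving out a Pol II library gave 3644 or 3781.

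The 10 genes with the largest excess of start over body, of 445 that met the naming rule, were Zbtb37, Lmln, Rdm1, Stt3b, Stab1, Polr2a, Taf12, Gramd2, Wwtr1 and Chchd1. Zbtb37, a zinc finger gene, had 34 and 73 reads at the start against 6 and 15 in the much deeper inputs, and 43 and 42 in the body against 376 and 408 in a gene of 26036 bp. That is 22.1 and 26.4 RPKM at the start and 1.09 and 0.596 in the body, where the inputs stood at 0.67 and 0.659. Its start exceeded its body by 5.49 ± 0.59 on the log2 scale (limma adjusted p = 0.0072). Neighbours were sought among protein-coding genes only, so reads from a non-coding gene starting in the same window would be counted here as well.

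Polr2a, which encodes the largest subunit of Pol II itself, showed the same shape at a higher level. It held 34.4 and 27.1 RPKM at the start and 1.48 and 1.88 in the body, against 0.682 and 0.412 and against 0.637 and 0.612 in the inputs. The start exceeded the body by 4.33 ± 0.49, and the body was still above input by 1.47 ± 0.16 (limma adjusted p = 6.6e-08).

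Rdm1, a gene of DNA repair, held 26 and 22.1 RPKM at the start and 0.339 and 0.473 in the body, with the body near its inputs of 0.452 and 0.555. Lmln, a metallopeptidase gene, held 9.74 and 10.1 RPKM at the start and only 0.211 and 0.325 in the body, where it was called lower than input (-0.80 ± 0.22, limma adjusted p = 0.0039). Wwtr1, which encodes the TEAD coactivator TAZ, held 7.79 and 6.51 RPKM at the start and 2.24 and 2.29 in the body. Its excess is relative to input and so rests in large part on inputs that were lower at the start than in the body. The other 5 ranged from 5.06 to 11.2 RPKM at the start in the Pol II libraries. Chchd1 rests on 2 and 0 body reads. Across the 10, the excess ranged from 4.23 to 5.49 on the log2 scale.

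The division of Pol II between start and body was summed for each list. Summed over sarcomere genes, start density over body density was 1.18 and 1.13 times that of the experiment's input, and over myotube markers 1.11 and 1.07 times. For all genes it was 3.25 and 2.59 times. Other muscle lists lay near that value in these sums, with 3.08 and 2.82 for transcription factors, 3.09 and 2.80 for excitation and calcium handling and 2.83 and 2.76 for fusion and the membrane complex. The sums give long genes more weight. The gene-wise median log2 of start over body in these 3 lists was lower, at 0.87, 0.59 and 0.86, against 1.22 for all genes. Replication and mitosis genes gave 4.62 and 3.50 times, pausing and elongation factors 4.46 and 3.49, heat shock and chaperone genes 3.91 and 2.67, immediate early genes 3.13 and 2.12, and cytosolic ribosomal protein genes 1.81 and 1.39. Experiment 1 gave the higher value in each of these lists, and its input also had the deeper dip at the start. The part of the dip in these values and the differences between lists were not tested.

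Among the named members of these lists, Fos, a classical immediate early gene, had 17 and 25 start reads and 10 and 17 body reads, against 5 and 10 and 33 and 31 in the inputs. Its start exceeded its body by 2.69 ± 0.61 (limma adjusted p = 0.018). Jun (1.03 ± 0.54), Egr1 (-0.71 ± 0.56) and Myc were not called. Of 39 immediate early genes, 9 were called higher at the start than in the body, a share near the 23.1% of all genes. Hspa8, a constitutive chaperone gene, was called at 2.58 ± 0.68, and Hspa2 at 3.81 ± 0.73. Hspa1a and Hspa1b are near-identical copies, and only uniquely matching reads were kept, so their values are uncertain.

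The replication and mitosis genes called were Cdc6, Aurka, Mad2l1, Ttk, Top2a, Mki67, Birc5, Kif11, Cenpf, Mcm4, Mcm5, Mcm6, Pcna and Rrm1, 14 of 42 (background 23.1%). Birc5, which encodes survivin, led them with 9 and 11 start reads and 4 and 11 body reads, an excess of 4.54 ± 0.87 (limma adjusted p = 0.012). Ttk, a spindle checkpoint kinase gene, followed at 4.28 ± 0.65, with a body below input (-1.22 ± 0.33). Mki67 was called on 0 and 2 start reads. The start windows of this group held 1.81 and 1.76 RPKM, against 0.0852 and 0.0882 for olfactory receptors and 2 and 1.92 for all genes. In the 30 of these genes in the start profile, both Pol II libraries were highest between 400 and 300 bp upstream of the start, at 3.25 and 2.90 RPKM. For all genes they were highest in the first 100 bp after it. The bin of the 30 genes was picked as the highest and rests on few reads. Read 5′ ends of fragments of 300 to 600 bp were not shifted in the profile, so it does not place Pol II itself upstream.

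Of 27 pausing and elongation factors, 11 were called higher at the start than in the body, among them Polr2a, the DSIF and Spt6 genes Supt5h and Supt6h, the NELF genes Whsc2, Cobra1 and Rdbp, and the Paf1 complex genes Ctr9 and Rtf1. Hexim1, which inhibits P-TEFb, was not called (0.72 ± 0.55). Of 43 muscle transcription factors, 10 were called, a share near the 23.1% of all genes. Mef2a (2.62 ± 0.75) and Six5 (3.98 ± 0.68) were among the 10, whereas Myog (-0.85 ± 0.50) and Myod1 (0.20 ± 0.48) were not. The share called was 1 in 28 for glycolysis and 3 in 57 for sarcomere genes, against 23.1% of all genes, and 2 of those 3 sarcomere genes, Myl2 and Myl3, had at most 2 start reads in either library.

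The division of Pol II also changed with gene length. When the 15310 genes without another start in their span were divided by length into 5 classes of 3062, body density fell from 1.48 and 1.52 RPKM in the shortest class to 0.599 and 0.606 in the longest, while start density moved between 1.39 and 2.02. Start over body rose from 1.28 and 1.15 times the input ratio in the shortest class to 3.22 and 2.48 in the longest, and rose at each step between. Input body density ranged from 0.431 to 0.509 RPKM over the classes. The exact tests called 26, 95, 191, 266 and 231 genes from the shortest to the longest class, and longer genes also had more body reads to test.

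**Figure D4:**
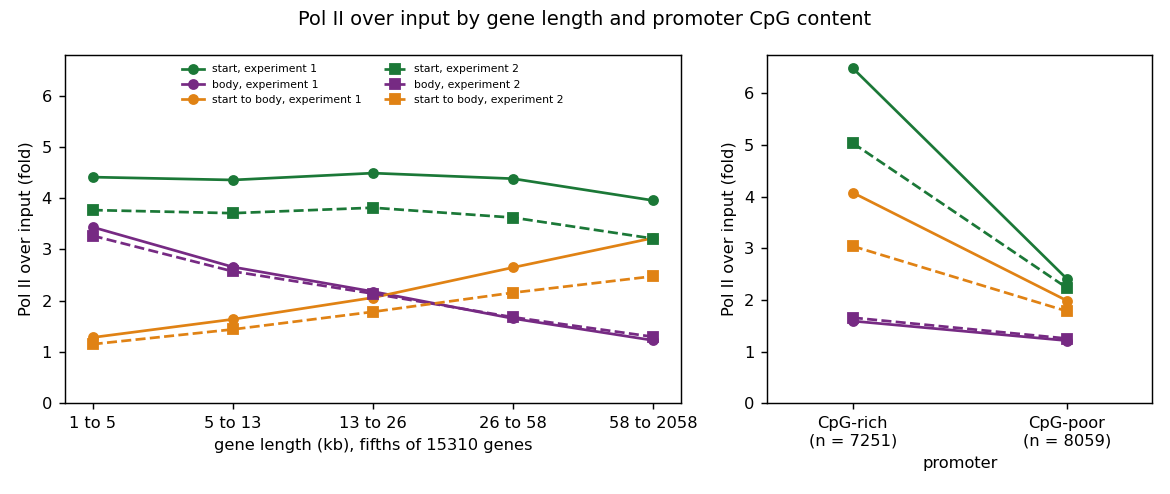
Pol II over input (fold) of summed reads at the start, in the body and for start over body, by 5 classes of gene length in kb (left) and by promoter CpG content (right), in experiment 1 (circles, solid) and experiment 2 (squares, dashed). Body values fell from 3.43 and 3.27 to 1.23 and 1.30 with length while start values stayed between 3.21 and 4.49, and CpG-rich starts stood at 6.48 and 5.03 against 2.41 and 2.23.

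In 162 genes the body exceeded the start, and 149 of them were called higher in the body, against 37% of all genes. Both calls use the same body reads, so the 149 is not a separate result. No Pol II read lay at the annotated start in 85 of the 162, and Fisher's exact test called 19 of the 162 in both experiments. The 10 genes with the largest excess, of 106 that met the naming rule, were Macf1, Plec, Igf2, Selm, Fam166a, Tnni1, H3f3b, Traf3ip3, Epha1 and Atcay. The start used was that of the longest model, and in 4 of the 10 another annotated start of the same gene held more Pol II than the body. Here and below, that other start was picked as the annotated start with the most Pol II reads. This choice favours an excess over the mean of the body, more so in genes with many starts.

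Tnni1, the slow skeletal troponin I gene, had 0 and 1 reads at the start used but 70 and 150 at a start 16.8 kb downstream, or 45.4 and 54.3 RPKM against 1.14 and 0.783 in the inputs. Igf2, a fetal growth factor gene, had 0 and 1 reads at the start used and 37 and 58 at a start 9.35 kb downstream. H3f3b, a replacement histone gene, had 1 and 0 against 49 and 79 at a start 3.46 kb downstream. Plec, which encodes the cytoskeletal linker plectin, had none at the start used and 27 and 38 at a start 32 kb downstream, or 17.5 and 13.7 RPKM against 7.63 and 8.18 in the body. In Macf1, which encodes a linker of actin and microtubules, the fullest of the annotated starts held 18 and 21 reads, and its 11.7 and 7.6 RPKM did not stand clear of the body at 7.18 and 7.71. Each of these 5 genes has several annotated starts, from 2 in H3f3b to 15 in Plec, and Tnni1 spans chr1:137679642-137702199 and Igf2 chr7:149839661-149852721 in mm9. Cdkn1a and Gapdh, which were also called higher in the body than at the start, had 73 and 132, and 67 and 139 reads at starts 2.79 and 1.17 kb downstream, against 5 and 22, and 24 and 32, at the starts used. With the shortest model of each gene in place of the longest, start over body turned positive in Igf2, H3f3b and Gapdh. Of all 162, 32 had another annotated start over 500 bp away with at least 10 reads in each Pol II library.

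The other 5 genes have a single annotated start with no Pol II read in either library. With 3 reads as the floor over both libraries, Selm, Fam166a, Epha1 and Atcay were at least 8.60, 7.23, 5.80 and 4.75 times higher in the body than at the start relative to input, and Traf3ip3 at least 5.92 times. In 4 of the 5 the reads of both Pol II libraries lay mostly beyond the midpoint of the gene: 95.8% and 93.0% in Fam166a, 89.8% and 91.7% in Epha1, and 93.2% and 94.7% in Atcay, against 47.1% to 63.0% in their inputs, and 71.4% and 92.1% in Selm, against 69.0% and 40.0%. In Traf3ip3 the shares were 37.9% and 47.6% against 46.0% and 42.0%. Another gene called higher in its body lies at or near the end of all 5, for Traf3ip3 A130010J15Rik at 326 bp. Fam166a overlaps Tubb2c and Epha1 overlaps Zyx, whose body was above input by 3.46 ± 0.13, and Selm ends 172 bp from Smtn. Atcay lies 2471 bp from Itgb1bp3, which was above input by 4.64 ± 0.18. The part of these neighbours in the body reads was not tested.

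Pol II ran past the annotated gene end. Over 9691 genes of at least 5 kb with no other start in their span and no other gene for 4 kb after the end, density rose from 0.79 and 0.801 RPKM between 3 and 1 kb before the end to 0.997 and 1.01 in the first 2 kb after it, and was 0.863 and 0.917 from 2 to 4 kb after it. The inputs stayed between 0.437 and 0.461 RPKM in these 3 stretches. For 26 sarcomere genes the values were 15.6 and 16 before the end, 15.8 and 15.5 in the first 2 kb after it and 9.64 and 11.5 beyond. Reads thus reached at least 4 kb past the end in both libraries.

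Single genes rarely passed the test of the end against the body: 37 of 12965 were called higher past the end (0.285%) and 4 lower (0.0309%), with 2379 at an unadjusted p under 0.05. Fisher's exact test called 73 in both experiments, 34 of them among the 37. Without input 1 or input 2 limma called 0 (980 and 1087 at an unadjusted p under 0.05), and without Pol II replicate 1 or 2 it called 132 and 69. Of the 37, 15 were called higher in the body, 9 were not called and 13 were called lower. Among all genes tested in the body, 37% were called higher and 22.6% lower. The 2 genes given here were picked after their values were seen. Prss12, a protease gene with a body near input (0.05 ± 0.18), had 64 and 104 reads in the 2 kb past its end against 31 and 32, an excess of 4.79 ± 0.33 (limma adjusted p = 0.0039). Myl4 had 332 and 579 against 89 and 115, an excess of 1.83 ± 0.20 (limma adjusted p = 0.020).

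**Figure D5:**
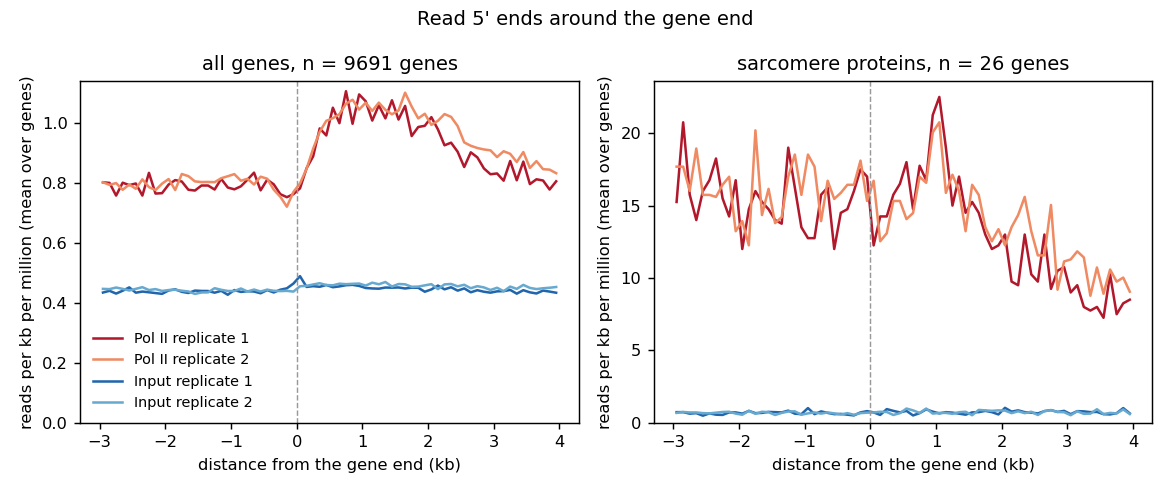
Mean density (RPKM) of read 5′ ends in 100 bp bins from 3 kb before to 4 kb after the gene end, for 9691 genes with no other gene within 4 kb after it (left) and 26 of these that encode sarcomere proteins (right). Over all genes both Pol II libraries rose from 0.79 and 0.801 before the end to 0.997 and 1.01 in the 2 kb after it, and the inputs stayed between 0.437 and 0.461.

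Sox6, the gene of the factor precipitated in the remaining samples, was not called against input in these wild-type myotubes. It had 1 and 1 reads at the start against 15 and 19 in the inputs, and 491 and 964 in the body of a gene of 567401 bp against 8034 and 8209. The start used was that of the longest model, and no other annotated start of Sox6 was examined for Pol II. Its body log2 ratio was -0.06 ± 0.08 (limma adjusted p = 0.51), and its body density of 0.563 and 0.616 RPKM stood beside 0.645 and 0.597 in the inputs. That lies above the 0.36 and 0.34 times input of the olfactory receptors, and with libraries scaled to the reads far from genes its body ratio was 1.14 and was called higher.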

How the data were processed

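Read positions (column values of mapped read intervals, a unit without counts) were deposited per the labels as BED files. The authors sequenced single ends on a Genome Analyzer II and aligned them with Bowtie 0.12.5 to mm9, keeping unique matches. Whether repeated reads were removed is not given in the sources used here, and 2.96% to 5.52% of reads shared a position and strand. Read 5′ ends were counted here per gene, with 0.5 reads added per library and scaling to mapped reads. Genes needed 5 input reads, and bodies 500 bp. limma 3.58.1 with voom weights in R 4.3.3 tested Pol II against input and region against Pol II, two-sided, with Benjamini-Hochberg adjustment over all genes. Binomial and Fisher's exact tests used scipy 1.17.1. The fits were tested on simulated data, where unchanged genes came out above 0 both at starts and in start over body. At starts more unchanged genes were called higher than changed genes were recovered, and unchanged genes were also called in bodies. The adjusted p thus did not hold its error rate there. Most changed genes of the start over body fit were missed. Fold changes at starts with few reads are pulled upwards, since 0.5 reads weigh more in the shallower Pol II libraries. Summed densities have no added reads. Intervals and floors cover counting error only.

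Genes were named by rule: the 10 largest body ratios, start excesses and body excesses among called genes of the same sign in both experiments, with 20 body or 10 start reads in each Pol II library and no other start in their span, then 18 fixed genes and the extremes of each list. Members and lists were chosen with earlier results of these data known. The study describes the replicates as independent experiments. Same-numbered Pol II and input libraries did not deviate together (correlations of deviations 0.0566 at starts and -0.0110 in bodies, 2 pairs). Of gene records, 140 that shared a symbol were left out. Other starts and other genes were sought among protein-coding genes only. The peak lists of the authors were not used. Other windows, gene models, filters, scalings, weights, backgrounds and each library left out were tried as alternatives. Genes with over 200 input reads per kb were left out, a robust spread was used, and Fisher's exact test was run, as alternatives chosen after seeing the data. Values of 1 gene are not reported here.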

Additional observations from a re-analysis of the deposited data

Results flagged for a closer look

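The Sox6 immunoprecipitations, which enter above only as an alternative background, also held more reads at gene starts than the inputs. Without the pile-up genes, 1.09% and 1.51% of their reads fell within 500 bp of a start, against 0.834% and 0.975% in the inputs and 3.79% and 3.64% in Pol II. The difference was not tested.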

How the results depend on the processing

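The body count of 7265 stayed within 1.5 times under every alternative except scaling to reads far from genes (11931). The other counts moved more. More Pol II than input at the start was called in 728 genes with 1000 bp windows, 76 without genes that span another start, 0 with shortest models, 0 without a filter, 3870 against Sox6, 13245 with far scaling and 4217 by exact tests. Without one library the start count ranged from 369 to 7697 and the body count from 5737 to 7701. Start over body (4244) gave 2458 with shortest models, 2585 without spanned starts, 1820 with an equal value added per library size, 0 without a filter, 0 against Sox6, 1234 by Fisher's exact test and 0 to 3781 without one library. Body over start (162) gave 60 and 320 with 250 and 1000 bp windows, 75, 101, 254, 0, 0 and 19 under the same settings, 107 with a trend and 0 to 147 without one library. Past the end (37) gave 1, 5, 2, 0, 0 and 73, 0 with a trend and 0 to 132 without one library. Except where the next paragraph bears on it, the cause was not tested.

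With pile-up genes left out, chosen after seeing the data, the start counts that fell so far were 7672 with 1000 bp windows, 6292 without spanned starts, 7539 with shortest models and 10033 without a filter, so these losses went with the 13 pile-up genes. A robust spread without a filter gave 10041 at the start and 4198 for start over body. Without pile-ups, start over body gave 2466, 2594 and 0 with shortest models, without spanned starts and without a filter, body over start 76, 99 and 0 with 319 for 1000 bp windows, and past the end 1, 5 and 0. Leaving out Input 1 as well gave 0 for these 3 counts. The robust spread without a filter gave 2 past the end. Genes lower at the start (24) numbered 1 to 112 without one library and 1556 with an equal value added, and genes lower in the body (4437) numbered 1673 to 5282 without one library.

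With the replicate block, 8691 genes were called at the start, 7504 in the body, 4938 and 192 for start and body over each other and 220 higher and 45 lower past the end (37 and 4 without it). Of these counts, those past the end moved by over 1.5 times.

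Some values for single genes changed sign. With shortest models, start over body became 0.16 for Igf2, 1.57 for H3f3b, 0.38 for Gapdh, -2.16 for Myl2, -0.97 for Itpr1, 0.67 for Sgca, 0.89 for Ldha and -0.24 for Nr4a2, also with pile-ups left out. With far scaling, which raises every ratio to input, the body ratio became 0.67 for Ryr3, 0.74 for Rbl1, 0.013 for Mki67, 0.47 for Pecam1 and 0.79 for Cdh1. Against Sox6, start over body became -0.11 for Ryr3, -0.070 for Dag1 and -0.098 for Syt1.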

Other observations

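Read density also differed between chromosomes in every library, in a way no comparison above uses. The median 100 kb bin of chromosome 10 stood at 1.38 and 1.36 times the autosomal median in the inputs and at 1.32 and 1.30 times in Pol II. Chromosome 6 stood at 1.13 and 1.14 times in the inputs, and chromosome X at 0.521 and 0.535. The stretch of chromosome 11 around Myl4 held 17 genes, Cdc27 and Gosr2 among them, with 7.4 and 7 times the autosomal median in Pol II and 3.67 and 4.21 times in Sox6. The cause was not tested.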
